A study of Mus musculus with 4 samples.

Results

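Wtap and Gm20742 are 2 genes whose fragments were counted among the RefSeq transcripts of mouse sperm small RNA libraries, out of 16785 genes with a matched transcript. They were chosen by measured values, the difference between the crosses in these libraries: in a comparison of the crosses over the 477 genes with a mean of at least 10 RPM, their log2 fold changes ranked 1 and 2 from the lowest. All 6 of their transcript rows, 3 per gene, were used here. RPM, the authors' unit, scales reads to a library of a fixed size.

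The libraries came from cauda epididymal sperm of adult C57BL/6 mice, 1 mouse and 1 library each, with 2 mice in each of 2 groups: the original cross, and an extra cross to wildtype. The title of the study sets sperm susceptible to LoxP silencing beside sperm that is not, LoxP being the short element that Cre recombinase recognises. The labels name no Cre driver, no LoxP allele and no genotype of the sampled mice, and do not say which cross was the susceptible one. Replicate numbers 1 and 2 name the deposited tables, each with 1 library of each cross.

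Wtap encodes a regulatory subunit of the complex that writes N6-methyladenosine (m6A) on messenger RNA. It holds the catalytic pair Mettl3 and Mettl14 in nuclear speckles and was first described as a partner of the Wilms tumour protein. Gm20742 is a predicted long non-coding RNA gene whose function is not known here. PIWI-interacting RNAs (piRNAs) are short RNAs of male germ cells that are cut from long precursor transcripts, some from intergenic clusters and some from messenger RNAs. They guide PIWI proteins in the silencing of transposons and of other transcripts. The rows of the 461 piRNA loci in the tables are set beside both genes here.

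In RefSeq, on the build GRCm38 (also called mm10, the build in the submitters' processing notes), Wtap lies on the minus strand at chr17:12966799-12992543 and Gm20742 on the plus strand at chr17:66192415-66199890. The 250 bases before their starts are shown because the fragments of both genes were lower in the same libraries as the piRNA loci. The Wtap window precedes its most upstream RefSeq start (chr17:12992544-12992793, minus strand) and the Gm20742 window its first start (chr17:66192165-66192414, plus strand), both credited to RefSeq on GRCm38.p6. Capitals mark the CCAAT box, the letters CCAAT or, on the other strand, ATTGG.
Wtap: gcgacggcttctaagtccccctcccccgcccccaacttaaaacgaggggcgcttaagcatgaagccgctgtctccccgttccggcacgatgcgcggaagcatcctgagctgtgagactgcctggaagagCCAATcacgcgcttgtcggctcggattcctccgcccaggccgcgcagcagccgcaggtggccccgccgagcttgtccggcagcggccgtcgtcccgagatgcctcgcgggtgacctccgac
Gm20742: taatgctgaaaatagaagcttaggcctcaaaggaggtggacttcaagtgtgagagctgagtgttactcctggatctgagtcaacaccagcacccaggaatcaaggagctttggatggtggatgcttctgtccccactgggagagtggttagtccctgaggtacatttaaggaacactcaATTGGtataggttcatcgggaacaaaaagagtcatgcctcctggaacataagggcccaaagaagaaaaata
Each printed window held 1 CCAAT box, as did 33.8% of all 32851 windows of this length searched on both strands. Neither printed window held AACTG or its reverse CAGTT, the core letters bound by MYB proteins such as A-MYB (Mybl1), which 39.1% of all windows held. In base composition they differed: the Wtap window was 68.0% G or C with 29 CG pairs, and the Gm20742 window was 46.4% G or C with 1, against a median of 52.4% and 6 over all windows. In the GENCODE annotation, the printed Wtap window meets the first exon of NM_175394.2, a row of only 0.33 to 1.67 reads per library. The abundant Wtap rows, NM_001113532.1 and NM_001113533.1, begin downstream of that exon. RefSeq gives Wtap a further start, that of NM_001113533.1. The window before it (chr17:12992260-12992509, minus strand), not printed because it overlaps the first exon of NM_175394.2, held 0 CCAAT boxes and 0 MYB core matches and was 80.0% G or C with 41 CG pairs. No binding was measured in this study.

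The RefSeq rows of original-cross replicate 1 are deposited on a lower scale than the other classes of that library. The scale is not stated and was inferred. Taking 0.0603 RPM as the value of 1 read there, because its simple fractions were also common, against 1.58 RPM in the miRNA class gives a ratio of 26.2, by which the RefSeq values of that library were multiplied. In the other 3 libraries both values were equal. A commoner RefSeq value, 0.03015 RPM, taken as 1 read would give a ratio of 52.4. The library would then have 101.7 RPM of Wtap and 150.8 RPM of Gm20742, with log2 fold changes between the crosses of -2.44 and -2.29. All values below are on the rescaled scale unless called as deposited.

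The Wtap sum came to 50.8 (replicate 1) and 22.2 RPM (replicate 2) in original-cross sperm and to 6.21 and 10.2 RPM in extra-cross sperm. Both original-cross libraries lay above both extra-cross libraries. The means were 36.5 ± 20.3 RPM (SD, n = 2) and 8.20 ± 2.81 RPM (SD, n = 2). Within replicate 1 the original cross was 8.19-fold higher, and within replicate 2 it was 2.18-fold higher. The log2 fold change of log2(RPM + 1), extra over original, was -1.95. These values chose the gene and are given with no test.

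Few reads stand behind these values. The Wtap level stood for 32.2 and 39.5 reads in the original cross and for 9.67 and 42.8 reads in the extra cross, counting shares of divided reads. The lowest Wtap level, in extra-cross replicate 1, thus rests on the fewest reads. Without it, the log2 fold change was -1.63.

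Gm20742 summed to 75.4 and 35.4 RPM in original-cross sperm and to 16.5 and 12.2 RPM in extra-cross sperm. Here too both original-cross libraries lay above both extra-cross libraries. The means were 55.4 ± 28.3 RPM (SD, n = 2) and 14.3 ± 3.00 RPM (SD, n = 2). The within-table folds were 4.58 and 2.90, and the log2 fold change was -1.80. This level stood for 47.7 and 63.1 reads in the original cross and for 25.7 and 51.4 reads in the extra cross.

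As deposited, with no rescaling, original-cross replicate 1 would have had 1.94 RPM of Wtap and 2.88 RPM of Gm20742, below the extra cross. The direction of the RPM difference in replicate 1 therefore rests on the rescaling, and that in replicate 2 does not. A gene's share of the RefSeq class sum, given further on, does not use the rescaling.

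**Figure D1:**
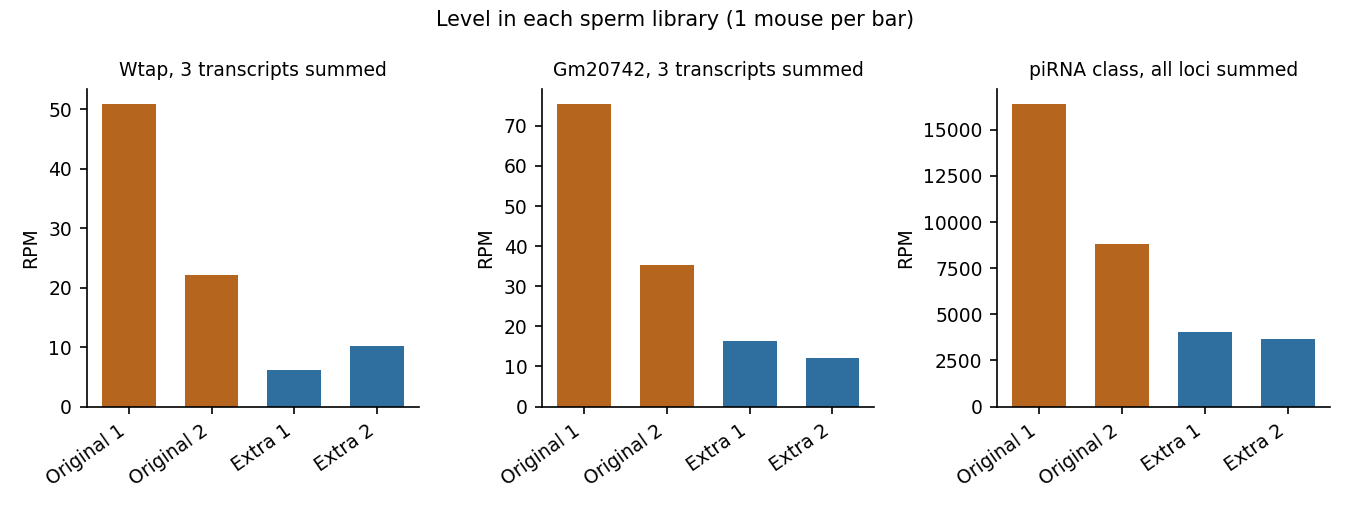
Bars give the level in RPM in each of the 4 libraries for Wtap, Gm20742 and the sum of all piRNA loci, each axis starting at 0; orange is the original cross and blue the extra cross. In all 3 panels both original-cross bars stand above both extra-cross bars, with original-cross replicate 1 the highest.

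Non-overlap of the crosses was common among RefSeq genes. Of the 477 genes tested, 258 (54.1%) had both extra-cross libraries below both original-cross libraries, and 21 (4.4%) had the reverse. In both tables, 341 (71.5%) were lower in the extra cross and 44 (9.22%) higher. The median log2 fold change over these genes was -0.50. In limma 0 of 477 genes (0.0%) passed a Benjamini-Hochberg adjusted p of 0.05, while 114 had an unadjusted p below 0.05. With 1 library left out, the count was 7 without original-cross replicate 1, 41 without original-cross replicate 2, 2 without extra-cross replicate 1 and 1 without extra-cross replicate 2. The genes next in order of log2 fold change were Rps12 (-1.56), which encodes a ribosomal protein, and the collagen gene Col5a1 (-1.51).

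Of the 3 Wtap rows 2 were abundant. NM_001113532.1 had 25.4 and 11.0 RPM in original-cross sperm and 2.51 and 4.74 RPM in extra-cross sperm. NM_001113533.1 had 24.9 and 10.7 RPM against 2.94 and 5.05 RPM. In both of these rows the crosses did not overlap, and their log2 fold changes were -1.99 and -1.83.

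The third row, NM_175394.2, had 0.527 and 0.468 RPM in original-cross sperm and 0.749 and 0.396 RPM in extra-cross sperm. Its crosses overlapped, with a log2 fold change of 0.06. It stood for 0.33 to 1.67 reads per library, too few to show a difference. It made up 1.04% and 2.11% of the gene's sum in the original cross and 12.1% and 3.89% in the extra cross.

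The 2 abundant rows held nearly the same value in each library. NM_001113532.1 was 1.02 and 1.03 times NM_001113533.1 in the original cross and 0.855 and 0.937 times in the extra cross. Many RefSeq values in these tables are simple fractions of the value of 1 read. Whether both rows hold shares of the same reads was not measured.

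**Figure D2:**
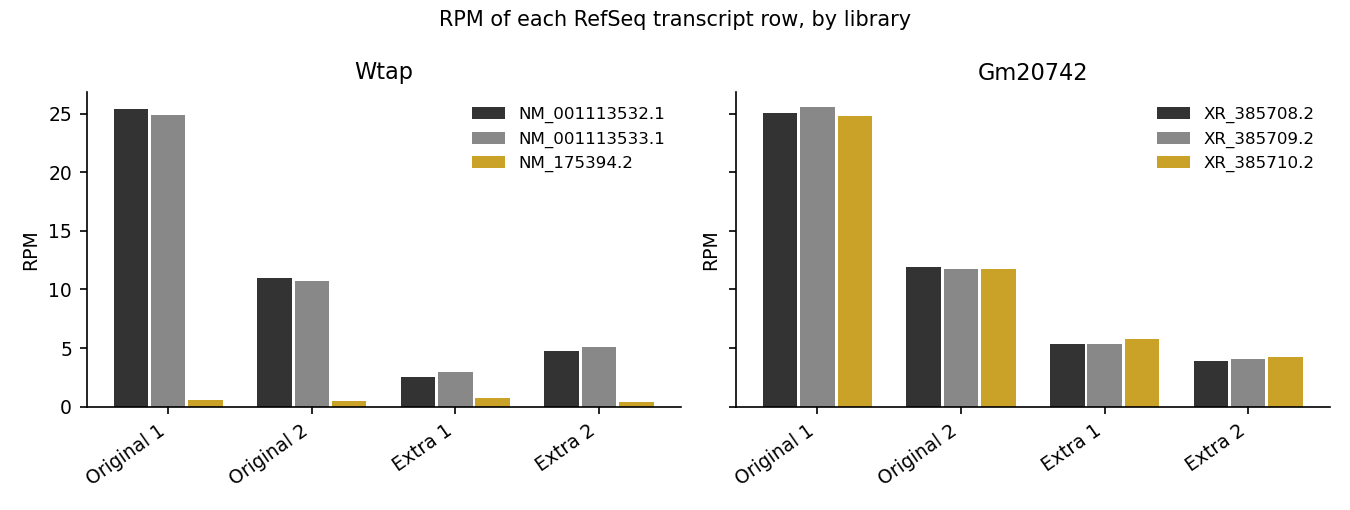
Bars give the RPM of each transcript row in each library, with the same axis for both genes. For Wtap the rows NM_001113532.1 and NM_001113533.1 stand nearly level with each other in every library while NM_175394.2 stays below 1 RPM, and for Gm20742 the 3 rows stand nearly level.

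The 3 Wtap transcripts share some exon stretches and differ in others. In the GENCODE annotation of GRCm38, NM_001113532.1 (3187 bases) and NM_001113533.1 (2051 bases) have in common, and NM_175394.2 (2442 bases) lacks, a single stretch of 116 bases at chr17:12992077-12992192. That stretch is the whole first exon of NM_001113532.1 and part of the first exon of NM_001113533.1, and it is untranslated. The stretches present in all 3 transcripts come to 460 bases, 452 of them coding. The last exon of NM_001113532.1 contains the whole last exon of NM_175394.2 (1923 bases). Of these, 179 bases are also an exon of NM_001113533.1 and 1744 bases lie in its intron.

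A read lying wholly in the 460 shared bases matches all 3 transcripts, and one in the 1744 bases matches NM_001113532.1 and NM_175394.2. The rows NM_001113532.1 and NM_001113533.1 together held 99.0% and 97.9% of the gene's sum in the original cross and 87.9% and 96.1% in the extra cross. Of all windows of 25 bases in these transcripts, 115 occur in NM_001113532.1 and NM_001113533.1 and not in NM_175394.2. None of these windows was found on either strand of the 141758 transcripts annotated to other genes. The tables hold no read positions, so where the fragments lie within the transcripts was not measured.

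**Figure D3:**
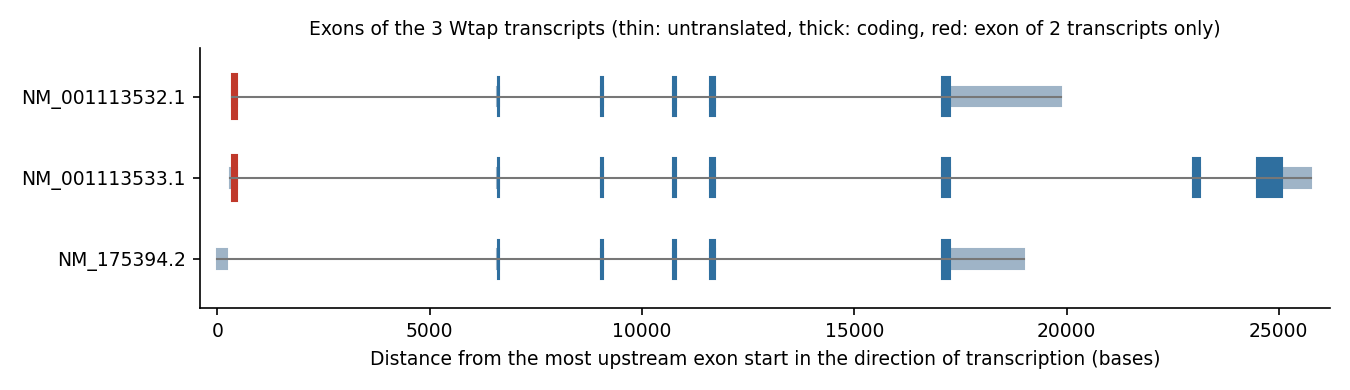
Exons of the 3 Wtap transcripts are drawn to scale along the gene, with distance in bases from the most upstream exon start; thin boxes are untranslated, thick boxes coding, and red marks the 116 bases held by NM_001113532.1 and NM_001113533.1 only. The red stretch lies in the first exon of both, and NM_175394.2 begins with another first exon.

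The 3 Gm20742 rows had nearly the same values as each other. XR_385708.2 had 25 and 11.9 RPM in original-cross sperm and 5.33 and 3.91 RPM in extra-cross sperm. XR_385709.2 had 25.6 and 11.7 against 5.33 and 4.07 RPM, and XR_385710.2 had 24.8 and 11.7 against 5.81 and 4.23 RPM. Each row held about the same share of the gene, from 32.0% to 35.3% over the rows and libraries. In a library the highest row was 1.02 to 1.09 times the lowest.

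The piRNA class as a whole, given here as the base of the ratios that follow, summed to 16391 and 8826 RPM in original-cross sperm and to 4068 and 3684 RPM in extra-cross sperm. The original cross was thus 4.03-fold (replicate 1) and 2.40-fold (replicate 2) higher. Gm20742, at 4.58-fold and 2.90-fold, lay near the class in both tables. Wtap lay above it in replicate 1 (8.19-fold) and near it in replicate 2 (2.18-fold).

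Wtap was equal to 0.310% and 0.251% of the piRNA class sum in the original cross and to 0.153% and 0.276% in the extra cross. The crosses overlapped in this ratio, and its log2 difference was -1.02 in replicate 1 and 0.14 in replicate 2. Gm20742 was equal to 0.460% and 0.401% of the class in the original cross and to 0.405% and 0.332% in the extra cross. These values overlapped as well, with log2 differences of -0.18 and -0.27. Most of the class came from loci named for a chromosome band, at 15161 and 8008 RPM against 3532 and 3189 RPM. Against the sum of the loci named for a host gene, the crosses did not overlap for either member. Gm20742 was 6.13% and 4.33% of that sum in the original cross and 3.07% and 2.47% in the extra cross. Wtap was 4.13% and 2.71% of it against 1.16% and 2.06%. Against the RefSeq class sum, which was 207665 and 155300 RPM in original-cross sperm and 131739 and 136016 RPM in extra-cross sperm, the crosses did not overlap. Gm20742 was 0.0363% and 0.0228% of it in the original cross and 0.0125% and 0.00898% in the extra cross. Wtap was 0.0245% and 0.0143% of the RefSeq sum against 0.00471% and 0.00749%.

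For the 121 piRNA loci averaging 10 RPM or more, the median log2 fold change was -1.82. Of these, 114 loci (94.2%) had both extra-cross libraries below both original-cross libraries and 117 (96.7%) were lower in both tables, while over all 760 small RNA features tested the share without overlap was 26.8%. A total of 24 loci had a log2 fold change at or below that of Wtap and 65 at or below that of Gm20742. No locus passed limma (0 of 121, 0.0%), while 104 had an unadjusted p below 0.05, against 112 of all 760 small RNA features. With the replicate number as a block 110 of 121 passed, all lower in the extra cross. The block leaves fewer degrees of freedom from the same 4 libraries. How many of all 760 features passed with it was not counted, and 214 had an unadjusted p below 0.05. Some loci hold the same values in every library, such as 6-qC3-6258.1 to 6-qC3-6258.3. The counts of loci here and below are therefore counts of rows, not of independent loci.

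**Figure D4:**
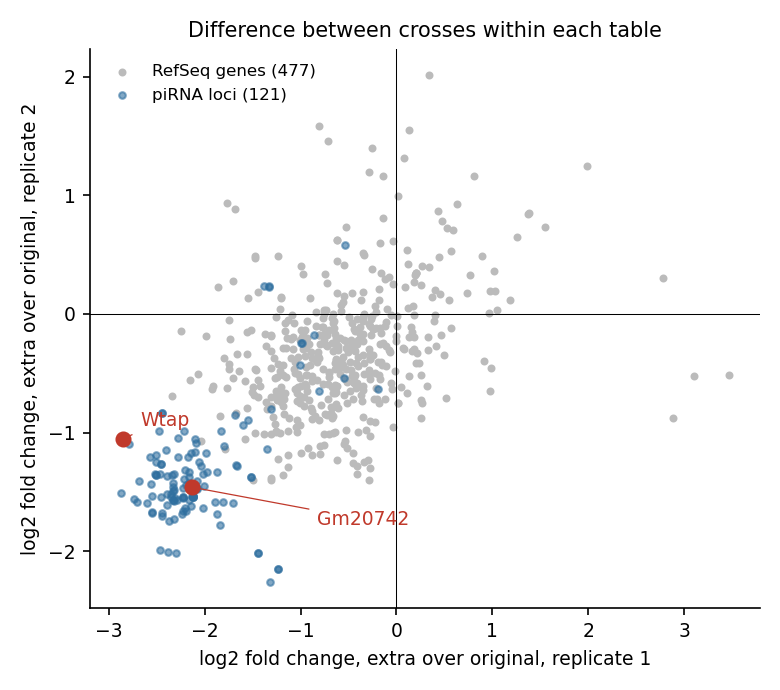
Each point is a RefSeq gene (grey) or piRNA locus (blue) with a mean of at least 10 RPM, placed by its log2 fold change, extra over original, in replicate 1 (horizontal) and replicate 2 (vertical). Gm20742 (-2.13 and -1.46), in red, lies among the piRNA loci. Wtap (-2.85 and -1.05), also in red, lies at the low end of their spread in replicate 1. The place of both genes among the grey points restates how they were chosen.

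No piRNA locus in the tables is named for Wtap or Gm20742. Loci are named for a chromosome band or a host gene and carry no positions, so overlap with either gene was not measured. Of the loci named for chromosome 17, where both genes lie, 5 had a mean of at least 10 RPM. The locus 17-qE1.1-7037.1 had 217 and 111 RPM in original-cross sperm and 48.3 and 35.6 RPM in extra-cross sperm. The abundant locus 17-qA3.3-27363.1 had 743 and 376 RPM in original-cross sperm and 160 and 150 RPM in extra-cross sperm. The rows 17-qA3.3-26735.1 to 17-qA3.3-26735.3 are near copies of each other, and the first had 264 and 149 against 55.7 and 50.1 RPM.

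Gm20742 was a nearly constant share of 17-qE1.1-7037.1, at 34.8% and 31.9% in the original cross and 34.1% and 34.3% in the extra cross. The SD of the log2 ratio over the 4 libraries was 0.056, the lowest of the 121 loci, whose median was 0.25. Closeness of this order was not particular to chromosome 17, since the next locus, 7-qD2-11976.3, had an SD of 0.060 and 10-qC1-2617.1 one of 0.075. With the RefSeq rows of original-cross replicate 1 as deposited the share there would be 1.33%, and with the commonest RefSeq value taken as a whole read it would be 69.6%.

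Wtap followed single loci less closely. Its share of 17-qE1.1-7037.1 was 23.4% and 20.0% in the original cross and 12.8% and 28.6% in the extra cross. The locus nearest to Wtap by the same measure was 1-qD-4525.1, with an SD of 0.12, and the median over the 121 loci was 0.43. These ratios share libraries and are given as descriptions.

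**Figure D5:**
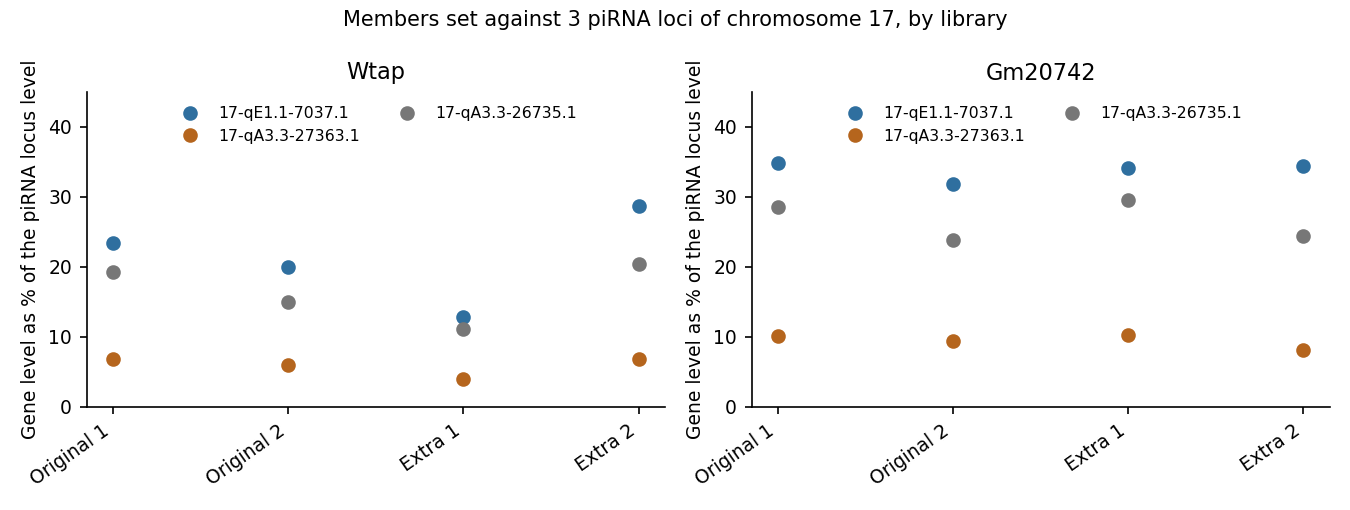
Points give each gene's level as a percentage of the level of 3 piRNA loci named for chromosome 17, in each library. Gm20742 stays between 31.9% and 34.8% of 17-qE1.1-7037.1, while Wtap ranges from 12.8% to 28.6%.

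The 5 most abundant piRNA loci were not alike. 18-qE1-36451.1 and 9-qC-31469.1 had log2 fold changes of -2.10 and -1.77, and 5-qF-4633.1 and 5-qF-4633.2 had -0.62 and -0.62. 17-qA3.3-27363.1, also among the 5 most abundant, had -1.76.

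The genes with a row that flank the members all averaged under 10 RPM. Beside Wtap, Acat2, an acetyl-CoA acetyltransferase, had 5.53 and 4.49 RPM in original-cross sperm and 0.642 and 2.91 RPM in extra-cross sperm. Sod2, the mitochondrial superoxide dismutase, had 4.74 and 2.24 against 3.85 and 1.66 RPM. Beside Gm20742, the helicase gene Ddx11 stayed at or below 0.748 RPM and Mtcl1, a microtubule crosslinking factor, at or below 0.238 RPM in all 4 libraries.

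Other genes of the m6A pathway mostly lay below the minimum used for testing. Of 26 listed, 1 had a mean of at least 10 RPM, and 0 passed limma in either direction. That gene, Prrc2a, which encodes a reader of m6A, had 31.6 and 26.9 RPM in original-cross sperm and 16.1 and 18.5 RPM in extra-cross sperm (log2 fold change -0.73 ± 0.30, SE, limma adjusted p = 0.198, unadjusted p = 0.0388). Its values came to 20 and 48 reads in the former pair of libraries and to 25 and 78 reads in the latter.

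The 7 other members of the writer complex, among them Mettl3, Mettl14, Virma and Zc3h13, had means from 0.465 to 3.51 RPM. They summed to 7.90 and 13.2 RPM in original-cross sperm and to 11.1 and 7.78 RPM in extra-cross sperm, so the crosses overlapped. Rbm15, an RNA-binding adaptor, is named because it was the only 1 of the 7 lower in both tables, at 3.16 and 4.21 against 1.28 and 2.73 RPM. These levels stood for 2 and 7.5 reads against 2 and 11.5 reads, too few to show a difference. The erasers Alkbh5 and Fto summed to 9.48 and 8.14 against 9.63 and 9.04 RPM, but went in opposite directions. Alkbh5 was slightly lower in both tables, at 7.90 and 7.57 against 7.06 and 6.895 RPM (log2 fold change -0.13), on 5 to 29 reads per library. Fto was higher in both, at 1.58 and 0.561 against 2.57 and 2.14 RPM, on 1 to 9 reads per library.

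Of 11 readers 10 had a row, and they summed to 62.4 and 42.9 RPM in original-cross sperm and to 35.1 and 33.9 RPM in extra-cross sperm, mostly Prrc2a and Hnrnpa2b1. Over the 26 genes, 25 of them with a row, 6 were lower in the extra cross in both tables and 4 were higher, against 26% and 12% of all 16785 genes at any level. The median log2 fold change of the 25 was -0.050.

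Transcripts of the piRNA machinery were scarce. Of 22 listed genes 8 had a row in the tables, and none reached a mean of 10 RPM. The most abundant were Tdrd7 and Tdrd1, which encode Tudor-domain proteins of germ granules, Pld6, a nuclease of piRNA processing, and the PIWI gene Piwil2. Their means over the 4 libraries were 1.47 RPM for Tdrd7, 0.721 RPM for Pld6, 0.503 RPM for Piwil2 and 0.281 RPM for Tdrd1. The 8 genes summed to 3.50 and 3.88 RPM in original-cross sperm and to 3.93 and 2.01 RPM in extra-cross sperm, so the crosses overlapped.

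The tissue label was checked on transcript fragments. The 7 sperm markers (Prm1, Prm2, Tnp1, Tnp2, Odf1, Akap4 and Smcp) all had a row but summed to only 3.16 and 6.17 RPM in original-cross sperm and to 5.14 and 2.97 RPM in extra-cross sperm, so the crosses overlapped. Of the wider list of 18 sperm transcripts Ubb, a ubiquitin gene, was the one tested, at 42.6 and 40.4 against 26.9 and 35.8 RPM. Odf2, Gapdhs and Odf1 had means of 1.60, 1.39 and 1.35 RPM.

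Except for blood, the marker sums of other cells did not overlap between the crosses. Of the 477 single genes tested, 54.1% did not overlap with the extra cross lower and 4.4% with it higher. None of the 15 markers tested passed limma. Of 9 collagen and stroma markers 8 were lower in the extra cross in both tables, against 71.5% of the 477 RefSeq genes tested. The 9 markers summed to 3556 and 4217 RPM in original-cross sperm and to 1581 and 1825 RPM in extra-cross sperm. The 8 epididymal epithelium markers, 5 of them higher in both tables, summed to 51.1 and 134 RPM against 146 and 159 RPM. In original-cross replicate 1 they rested on 0 to 15 reads each. The 6 blood markers summed to 103 and 49.9 RPM against 67.8 and 42.7 RPM, mostly Lyz2, so the crosses overlapped. Of 3 Sertoli cell markers Amh was at 0 and the sum was 4.74 and 5.05 against 3.21 and 4.52 RPM. That sum rested on 1 to 8 reads of Sox9 and 2 to 11 reads of Wt1 per library, too few to show a difference. The part of these cells in the member levels was not tested, and in bulk RNA fewer cells of a type and less RNA per cell cannot be told apart.

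The genes most like the members over the 4 libraries were found by rank of distance. By Euclidean distance between log2(RPM + 1) values centred on each gene's mean, the nearest to Wtap were Col5a1 (0.48), Amotl1 (0.61), Bicc1 (0.67), Gm20742 (0.75) and Col4a5 (0.76), against a median of 1.73 over all genes tested. Col5a1, a fibrillar collagen gene, had 98.0 and 52.4 RPM in original-cross sperm and 18.6 and 32.0 RPM in extra-cross sperm. The nearest to Gm20742 were Rnase4 (0.74), Cdh11 (0.75), Wtap (0.75), Ttn (0.77) and Bicc1 (0.78), against a median of 1.51. Both members were chosen by their low values in the extra cross over these same libraries. Their nearness to each other and to other genes with low values there partly restates that choice. Likeness over 4 libraries is a description.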

How the data were processed

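Small RNA of sperm from 4 mice was sequenced, 2 per cross, after size selection on a gel and with the 4 barcoded libraries in 1 lane, per the labels' protocols. The deposited values are RPM, per the file headers, in 1 table per replicate number. Per the submitters' processing notes, the tools were CASAVA 1.8.2 and Bowtie 1.1.2 and the build mm10. How reads were trimmed, annotated and divided among matches is not given in the sources used here. A feature listed in 1 table was given 0 in the other.

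The value of 1 read was the commonest miRNA value of a column, and for RefSeq the one among the commonest values whose simple fractions were also common. The scales rest on 632859 and 1782506 reads in original-cross replicates 1 and 2 and on 1557766 and 4205692 in extra-cross replicates 1 and 2. Divided reads kept counts from being recovered, so no count model was run and no counting interval is given. Of 68434 RefSeq transcripts 55925 (81.7%) matched a gene symbol, without the version number. Values were log2(RPM + 1), which understates the change of low genes. Over the 477 RefSeq genes and, separately, the 760 small RNA features averaging 10 RPM or more, limma (3.58.1, R 4.3.3) was run with a variance trend. Afterwards it was run on simulated data drawn from these fits, whose outcome is not given here. Python 3.11.15, pandas 2.3.3, numpy 2.4.6 and matplotlib 3.10.9 were used.

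The members and lists were chosen with earlier results of these data known. Named genes were the members, tested or most abundant list genes, the 5 nearest genes, flanking genes, and the 5 most abundant and the chromosome 17 piRNA loci.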

Additional observations from a re-analysis of the deposited data

How the results depend on the processing

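Each member rests on 9.67 to 63.1 reads per library, and each SD rests on 2 mice. Apart from the deposited scale, both members kept their direction in each alternative tried. With a library left out this was fixed in advance, since both original-cross libraries lay above both extra-cross libraries, and these values chose the genes. Over the libraries left out Wtap ranged from -2.53 (without original-cross replicate 2) to -1.37 (without original-cross replicate 1) and Gm20742 from -2.33 to -1.26 (the same 2 libraries). Scaled by median ratios of RefSeq genes, whose median log2 fold change was -0.50, Wtap stood at -1.45 and Gm20742 at -1.29. With the RefSeq rows as deposited, the log2 fold change was 0.12 for Wtap and 0.36 for Gm20742, by construction of the lower scale of original-cross replicate 1. With the commonest RefSeq value taken as 1 read, the log2 ratio to the piRNA class was -0.94 for Wtap (-0.44 in the main setting) and -0.73 for Gm20742 (-0.23). That ratio ranged from -0.87 to -0.013 for Wtap and from -0.37 to -0.086 for Gm20742 with libraries left out, the smallest for Wtap being without extra-cross replicate 1. The 0 RefSeq genes passing limma became 7 without original-cross replicate 1, 41 without original-cross replicate 2, 2 without extra-cross replicate 1 and 1 without extra-cross replicate 2; the lone library is then assumed to vary like the other group, and the cause was not tested.

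With a replicate block 0 RefSeq genes (131 at an unadjusted p below 0.05) and 110 of 121 piRNA loci (all with lower values in extra-cross sperm) passed limma. Of all 760 small RNA features, 214 had an unadjusted p below 0.05 in that fit. The log2 fold changes of Wtap (-1.95), Gm20742 (-1.80) and the piRNA class sum (-1.64) were those without the block. They had to be, since each replicate number holds 1 library of each cross. The deviations of same-numbered libraries correlated at 0.33 over RefSeq genes and 0.87 over small RNA features, but the labels do not say that a number marks a pair. The m6A pathway count of 0, whose alternatives were added after seeing the data, stayed at 0 in each of them.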
